A study of Mus musculus with 12 samples.

Results

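The 48 genes described here act in the G2 phase and in mitosis, the part of the cell cycle in which a cell that has copied its DNA prepares to divide and then separates its chromosomes. The list is one of gene names and its rule uses no measured value, but it was drawn up with earlier results of these data known. All 48 were found among the 21834 protein-coding genes of the count table, and all 48 were among the 11626 genes that passed a filter on low counts and were tested. RNA-seq was done on BV2 cells, an immortalized mouse microglial line that divides in culture. One line stably expressed a control shRNA (shCtrl). The other expressed an shRNA (shAnxa2) that targets Anxa2, the gene of the phospholipid-binding protein annexin A2. Each line was left untreated (CTRL) or was taken through oxygen-glucose deprivation and reoxygenation (OGD/R). This is a culture model of stroke in which cells lose oxygen and glucose, here for 4 h, and are then returned to normal medium, here for 12 h by the labels. The 4 groups, shCtrl-CTRL, shCtrl-OGDR, shAnxa2-CTRL and shAnxa2-OGDR, held 3 libraries each.

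Both lines had been made with lentivirus and puromycin selection, and 1 shRNA was used against Anxa2. Each line is a single stable line, so that a difference between the lines is a difference between these 2 lines. The libraries were grouped by their sample titles, because other label fields contradict the titles: shCtrl-OGDR libraries are tagged as Anxa2 knockdown and shAnxa2-CTRL libraries as WT. The level of Anxa2, given below, tells the lines apart. Which libraries of a line had OGD/R was taken from the titles and was not tested. If the treatment titles were swapped within the shAnxa2 line, the sign of its OGD/R response would turn. The 12 h of reoxygenation is the value in the labels, and the methods of the study give a longer time for the same treatment.

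Mitosis is driven by the kinase CDK1 bound to cyclin A or B, which CDC25 phosphatases switch on, and it ends when the anaphase-promoting complex, a ubiquitin ligase, marks cyclin B and securin for destruction. In between, motor proteins and microtubule-binding proteins build the spindle, the spindle assembly checkpoint holds the ligase back until each chromosome is attached, and the chromosomal passenger complex corrects faulty attachments. Transcripts of these genes are made mostly in G2 and mitosis and are low in resting cells. Their level in RNA from a whole culture follows the share of cells in these phases as well as the RNA made per cell. In bulk RNA, fewer cells in a phase and less RNA per cell cannot be told apart.

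Levels are given as CPM, the count of a gene scaled to library size, here by the trimmed mean of M values (TMM). Fold changes are on the log2 scale and come from the quasi-likelihood test of edgeR. Its p-values were adjusted over the 11626 genes by Benjamini-Hochberg, and a gene was called higher or lower where the edgeR adjusted p was under 0.05. Anxa2 itself, at chr9:69360902-69399077 of the deposited annotation (mm39 by the labels), stood at 164, 174 and 177 CPM in shCtrl-CTRL, 251, 294 and 291 in shCtrl-OGDR, 35.0, 44.4 and 41.8 in shAnxa2-CTRL and 18.2, 20.1 and 20.6 in shAnxa2-OGDR. The shAnxa2 libraries were below every shCtrl library, with a log2 difference of -2.09 ± 0.071 (SE, edgeR adjusted p = 3.94e-17) without OGD/R and -3.83 ± 0.078 (SE, edgeR adjusted p = 1.12e-21) after it. The two-sided exact permutation p was 0.1 in each of these comparisons, which is the smallest that 3 against 3 libraries can give. Total counts ran from 19521877 to 27288843 per library. The first library of shAnxa2-OGDR stood apart from the other 11, with 66525 counts for the leucyl-tRNA synthetase gene Lars2 against at most 2670 elsewhere. For each comparison that uses this library, the numbers of the 48 genes called are given with and without it. The counts by role and by other list, the distances and the sums include it. Counts on mitochondrial genes were 0.402% to 0.472% of the total in shCtrl-CTRL, 0.251% to 0.272% in shCtrl-OGDR, 0.272% to 0.286% in shAnxa2-CTRL and 0.331% to 0.380% in shAnxa2-OGDR. That share was higher in the 2 groups in which most of the 48 genes were higher, and its part in the results was not tested. All 12 microglia markers were measured, with a summed level of 1816 to 2256 CPM over the 12 libraries. Of the markers of other brain cells, 1 of 6 for neurons, 1 of 5 for astrocytes and 2 of 5 for oligodendrocytes passed the filter, and the sum of each list was at most 6.71 CPM in any library.

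The promoters of mitotic genes are known for a short element, the cell cycle genes homology region with the letters TTTGAA, and for CCAAT boxes. Both are bound by complexes that keep these genes low outside G2 and mitosis or raise them there. Promoter windows of RefSeq, from 250 bases before to 50 bases after the start of each gene on GRCm38.p6, were at hand for 39 of the 48 genes. Some genes had more than 1 window, among the 48 Bub3, Prc1 and Ect2 with 2 each. A gene was counted once, as holding a motif where any of its windows did. TTTGAA on either strand was found for 30 of these 39 genes (76.9%), against 20.2% of the 27025 genes with a window and 14.7% of the 9345 tested genes with one. CCAAT on either strand was found for 32 of 39 (82.1%), against 41.1% of all genes with a window and 43.3% of those tested. Both were found for 27 of 39 (69.2%), against 8.97% of all genes with a window and 7.45% of those tested. An E2F site, searched as TTTCCCGC or TTTGGCGC on either strand, was found for 2 of 39 genes (5.13%). It was found for 1.80% of all genes with a window and 3.51% of those tested. Among DNA replication and S phase genes with a window, 10 of 34 (29.4%) held the E2F site, 4 (11.8%) held TTTGAA and 21 (61.8%) held CCAAT. Among other mitosis and G2/M genes with a window, 35 of 65 (53.8%) held TTTGAA, 41 (63.1%) held CCAAT and 24 (36.9%) held both. These shares are descriptions, and a match of letters is not a bound site. Only the exact letters given were searched, and variants of them were not.

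The 180 bases before the start are shown for Cdk1 and Cdc20, which carry TTTGAA close to the start, for Ccnb2, which behaved opposite to them in these libraries, and for Ccnb1, whose window held CCAAT boxes but no TTTGAA. They are written 5′ to 3′ along the gene, all 4 genes lie on the minus strand, and capitals mark TTTGAA and CCAAT on either strand.
Cdk1 (chr10:69352913-69353092): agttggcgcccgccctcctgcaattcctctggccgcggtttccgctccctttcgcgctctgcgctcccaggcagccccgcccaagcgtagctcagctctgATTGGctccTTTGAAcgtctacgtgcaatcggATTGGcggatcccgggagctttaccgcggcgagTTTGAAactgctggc
Cdc20 (chr4:118437344-118437523): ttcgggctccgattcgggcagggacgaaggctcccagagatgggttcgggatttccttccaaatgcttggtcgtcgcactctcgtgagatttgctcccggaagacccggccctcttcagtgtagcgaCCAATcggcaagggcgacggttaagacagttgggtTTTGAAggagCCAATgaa
Ccnb1 (chr13:100786487-100786666): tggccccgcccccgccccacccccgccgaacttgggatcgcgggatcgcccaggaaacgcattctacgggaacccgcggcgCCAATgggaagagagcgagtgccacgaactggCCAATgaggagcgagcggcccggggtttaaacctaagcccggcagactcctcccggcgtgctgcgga
Ccnb2 (chr9:70421555-70421734): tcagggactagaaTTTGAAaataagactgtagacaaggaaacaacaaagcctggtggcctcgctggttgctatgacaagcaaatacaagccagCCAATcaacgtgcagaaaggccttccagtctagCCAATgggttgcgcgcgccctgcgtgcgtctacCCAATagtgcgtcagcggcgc
Counted from the start of the gene, TTTGAA began at -71 and -15 in Cdk1, at -18 in Cdc20 and at -167 in Ccnb2, which held another at 5, just past the stretch shown. CCAAT boxes began at -53 and -8 in Cdc20, at -99 and -67 in Ccnb1 and at -87, -54 and -21 in Ccnb2, and on the other strand at -208, -80 and -48 in Cdk1. A window with TTTGAA was found for 20 of the 25 genes with a window with a higher OGD/R response in shAnxa2 cells, and for 4 of the 6 with a lower one.

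Per kilobase of exon, using the union of exons in GENCODE vM21, the highest of the 48 in untreated shCtrl cells was Ube2c, the ubiquitin-conjugating enzyme of the anaphase-promoting complex, at 114 ± 4.96 RPKM (SD, n = 3). It was followed by Cdc20 at 97.1 ± 2.09 and Mki67 at 94.5 ± 6.85, which overlapped within their SD, and then by Aurka at 81.5 ± 4.06 and Plk1 at 78.0 ± 3.08, which overlapped as well. The lowest were Cdc25c at 3.06 ± 0.212, Ckap2 at 4.43 ± 0.346 and Mad2l1 at 7.92 ± 0.234. The mitotic cyclins Ccnb1, at 67.8 ± 3.54, and Ccnb2, at 50.5 ± 0.928, stood between. The annotation holds pseudogenes named after Ccnb1, Ccnb2 and Kif4, so the counts of these 3 genes are uncertain where reads could come from a copy. Replicates were close: the coefficient of variation of a gene within a group had a median of 3.45% in shCtrl-CTRL, 3.70% in shCtrl-OGDR, 4.21% in shAnxa2-CTRL and 5.46% in shAnxa2-OGDR.

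**Figure D1:**
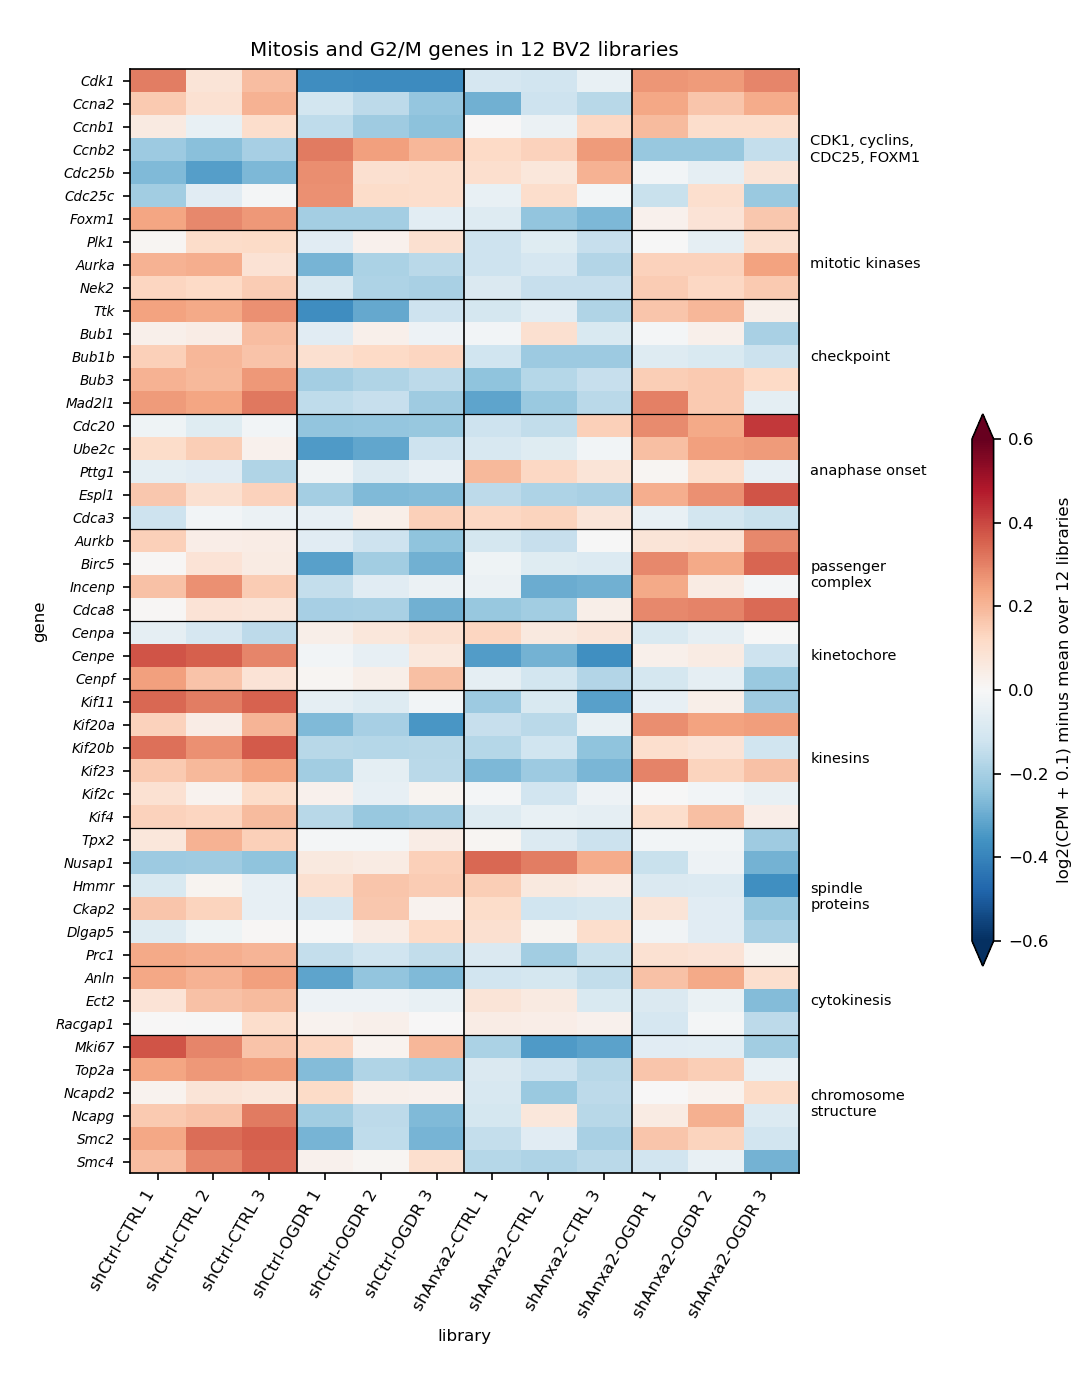
Heatmap of the 48 genes, grouped by role, in the 12 libraries. Color is log2(CPM + 0.1) minus the mean of the gene over the 12 libraries, so red is above and blue below that mean. Most rows are red in shCtrl-CTRL and shAnxa2-OGDR and blue in shCtrl-OGDR and shAnxa2-CTRL, while Ccnb2, Cdc25b, Nusap1 and Hmmr run the other way in shCtrl-CTRL and shCtrl-OGDR.

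By the sample titles, OGD/R went with lower levels of most mitotic genes in shCtrl cells and with higher levels of most in shAnxa2 cells. In shCtrl cells, 31 of the 48 genes were lower after OGD/R, where 31% of all genes tested were lower, and 6 were higher, where 32.4% of all genes were higher. In shAnxa2 cells, 28 were higher, where 28.2% of all genes were, and 8 were lower, where 26.8% were. The median log2 fold change of the 48 was -0.26 in shCtrl and 0.19 in shAnxa2 cells, while the median of all genes tested was at most 0.00608 in size in every comparison. TMM scaling holds the median of all genes near 0, so it is not an independent baseline. The changes were small for single genes: none of the 48 reached 1.5-fold in either line, a size that 20.1% of all genes reached with a call in shCtrl cells and 12.1% in shAnxa2 cells. Without the first shAnxa2-OGDR library, 24 genes passed upward and 5 downward in shAnxa2 cells, with a median of 0.16. Without the first shAnxa2-CTRL library, 5 passed downward as well.

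The 26 genes that fell in shCtrl and rose in shAnxa2 cells came from each of the 10 roles. They include Cdk1 and Ccna2, the transcription factor gene Foxm1, Aurora kinase genes Aurka and Aurkb, Cdc20 and Ube2c, 5 of 6 kinesin genes, and Mki67 and Top2a. The reverse, higher in shCtrl and lower in shAnxa2 cells, was called for 4 genes, Ccnb2, Cenpa, Nusap1 and Hmmr. Ect2 was lower in both lines. No gene was higher in both, 11 passed in 1 line only, and 6 passed in neither, namely Bub1, Bub1b, Pttg1, Cenpf, Kif2c and Ckap2. The 2 responses do not share libraries, and their difference was tested as the interaction below. That interaction was called higher for 34.9% and lower for 35.1% of all genes tested. How many of all genes tested had opposite calls in the 2 lines was not counted. Whether opposite calls were more common among the genes studied here than among all genes tested is therefore not known. Without the first shAnxa2-OGDR library, the OGD/R calls of Kif11, Mki67, Smc2, Cenpa, Ect2, Plk1 and Racgap1 in shAnxa2 cells were lost. For the counts by role below, 31% of all genes tested were lower and 32.4% higher in shCtrl cells. In shAnxa2 cells 28.2% were higher and 26.8% lower. A lack of overlap between untreated and OGD/R libraries, given below for single genes, was common. Of the 11626 genes tested, 4036 were higher and 3869 lower without overlap in shCtrl cells, and 3505 and 3343 in shAnxa2 cells. Of the 48, these numbers were 6 and 31 in shCtrl cells and 24 and 7 in shAnxa2 cells.

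**Figure D2:**
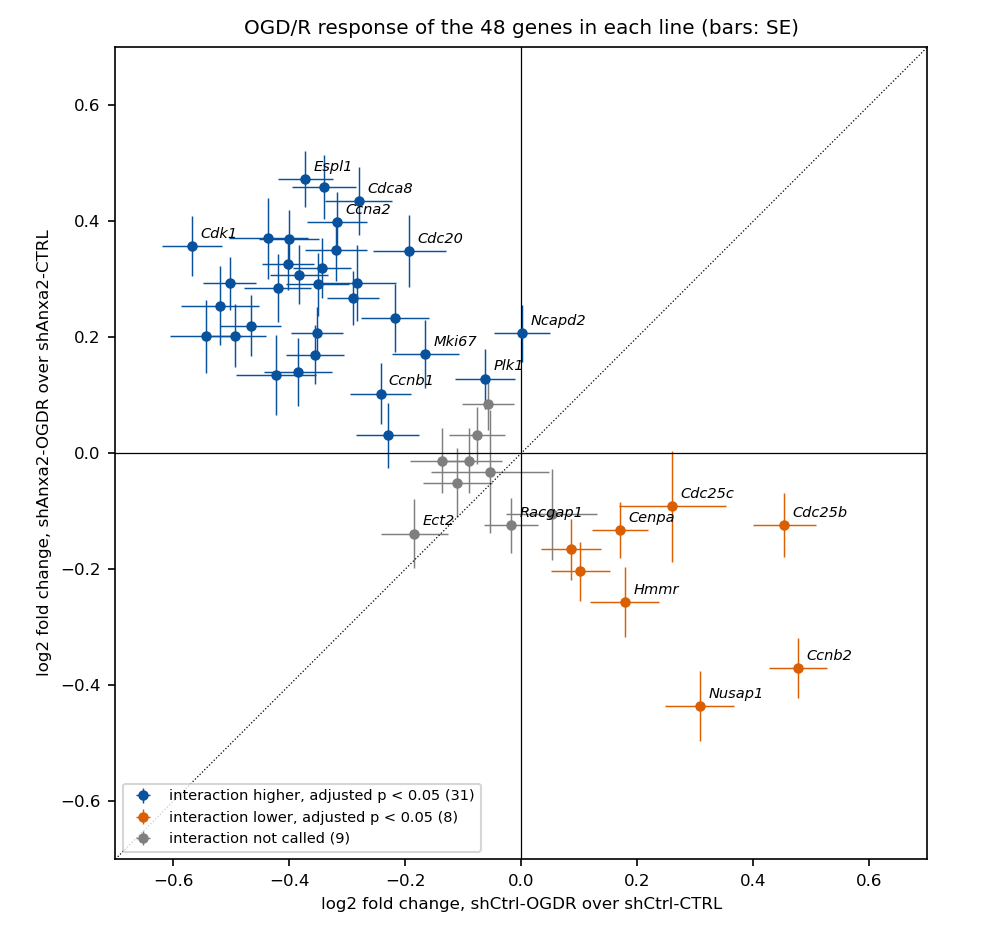
Log2 fold change with OGD/R in shCtrl cells (x axis) and in shAnxa2 cells (y axis) for the 48 genes, with bars of 1 SE. Blue points have a response that was higher in shAnxa2 cells (31 genes), orange points one that was lower (8 genes), gray points were not called (9 genes), and the dotted line marks equal responses. The upper left holds the genes lower in shCtrl and higher in shAnxa2 cells, and the lower right holds the smaller set with the reverse.

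The kinase CDK1, its cyclins and its activators did not move as a unit. Cdk1 stood at 148, 126 and 136 CPM in shCtrl-CTRL, 92.4, 92.0 and 92.1 in shCtrl-OGDR, 111, 111 and 116 in shAnxa2-CTRL and 144, 143 and 147 in shAnxa2-OGDR. The OGD/R and untreated libraries of each line did not overlap, and the shCtrl-OGDR libraries were the lowest of all. Cdk1 fell by 32.5% in shCtrl cells, a log2 fold change of -0.57 ± 0.051 (SE, edgeR adjusted p = 8.78e-10), and rose by 0.36 ± 0.051 (SE, edgeR adjusted p = 2.55e-06) in shAnxa2 cells. Ccna2, which encodes cyclin A2 and is needed for S phase and for entry into mitosis, followed it, with 227, 217 and 236 CPM in shCtrl-CTRL, 189, 183 and 174 in shCtrl-OGDR, 167, 187 and 182 in shAnxa2-CTRL and 239, 229 and 238 in shAnxa2-OGDR. Its log2 fold changes were -0.32 ± 0.051 (SE) in shCtrl and 0.40 ± 0.052 (SE) in shAnxa2 cells, both called.

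Genes of the 2 B-type cyclins, the partners of CDK1 in mitosis proper, parted. Ccnb1 stood at 289, 269.8 and 299 CPM in shCtrl-CTRL, 250.5, 239.8 and 235 in shCtrl-OGDR, 279, 272 and 303 in shAnxa2-CTRL and 317, 299.8 and 299.7 in shAnxa2-OGDR. Its shCtrl-OGDR libraries lay below all others, and its shAnxa2 groups overlapped. It fell by 0.24 on the log2 scale in shCtrl cells (edgeR adjusted p = 0.00029) but not in shAnxa2 cells, at 0.10 ± 0.052 (SE, edgeR adjusted p = 0.102). It passed there without shAnxa2-CTRL replicate 3 (edgeR adjusted p = 0.026). Ccnb2 stood at 77.7, 75.8 and 78.6 CPM in shCtrl-CTRL, 112, 107 and 104 in shCtrl-OGDR, 98.2, 99.3 and 108 in shAnxa2-CTRL and 77.3, 77.2 and 81.9 in shAnxa2-OGDR. It was higher in every shCtrl-OGDR library than in any shCtrl-CTRL library and lower in every shAnxa2-OGDR library than in any shAnxa2-CTRL library, with log2 fold changes of 0.48 ± 0.050 (SE, edgeR adjusted p = 1.25e-08) and -0.37 ± 0.051 (SE, edgeR adjusted p = 1.47e-06). It was the largest rise of the 48 genes in shCtrl cells.

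The phosphatase genes Cdc25b and Cdc25c, whose products activate CDK1, sided with Ccnb2 in shCtrl cells. Cdc25b stood at 103, 98.5 and 103 CPM in shCtrl-CTRL, 151, 133 and 133 in shCtrl-OGDR, 133, 130.0 and 143 in shAnxa2-CTRL and 123, 119 and 131 in shAnxa2-OGDR. It rose by 0.45 ± 0.054 (SE, edgeR adjusted p = 1.07e-07) in shCtrl cells. In shAnxa2 cells its change of -0.12 ± 0.054 (SE) did not pass (edgeR adjusted p = 0.0567). The change passed without shAnxa2-CTRL replicate 2 (0.0406), shAnxa2-OGDR replicate 3 (0.019), shCtrl-CTRL replicate 2 (0.0465) or shCtrl-OGDR replicate 1 (0.0267). Cdc25c, the lowest of the 48 per length, stood at 13.9, 15.3 and 15.9 CPM in shCtrl-CTRL, 19.4, 17.4 and 17.3 in shCtrl-OGDR, 15.6, 17.3 and 16.0 in shAnxa2-CTRL and 14.6, 17.2 and 13.8 in shAnxa2-OGDR. Its rise of 0.26 ± 0.093 (SE, edgeR adjusted p = 0.0174) in shCtrl cells was lost when any 1 of shCtrl-CTRL replicate 1 or shCtrl-OGDR replicate 1 was left out (edgeR adjusted p from 0.0862 to 0.0885). Foxm1, which encodes a transcription factor that turns on G2/M genes, stood at 80.8, 83.7 and 82.1 CPM in shCtrl-CTRL, 59.6, 59.5 and 65.6 in shCtrl-OGDR, 64.9, 58.2 and 56.7 in shAnxa2-CTRL and 69.7, 72.4 and 76.7 in shAnxa2-OGDR. It followed Cdk1, at -0.42 ± 0.058 (SE) in shCtrl and 0.28 ± 0.059 (SE) in shAnxa2 cells, both called. The untreated and OGD/R libraries did not overlap in either line.

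**Figure D3:**
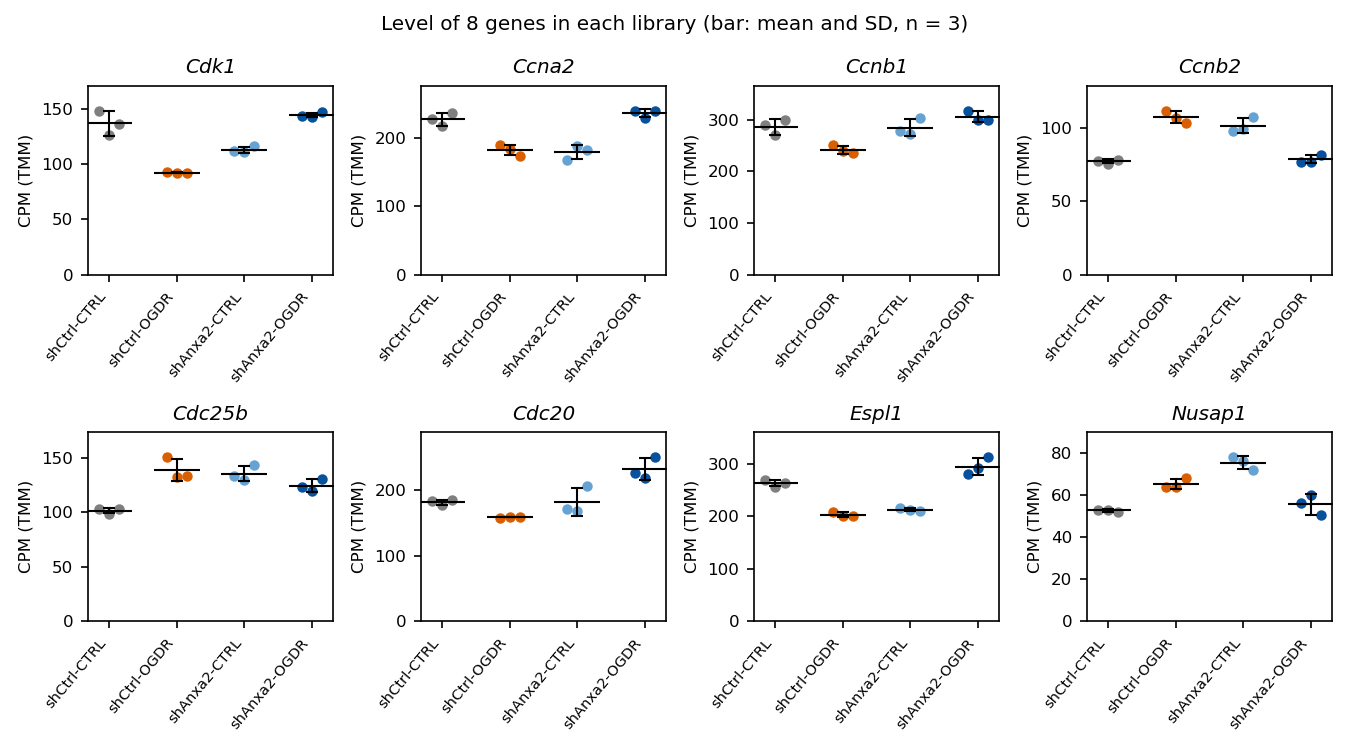
CPM of Cdk1, Ccna2, Ccnb1, Ccnb2, Cdc25b, Cdc20, Espl1 and Nusap1 in each library (points) with the group mean and SD (bars, n = 3), each y axis starting at 0. Cdk1, Ccna2, Cdc20 and Espl1 were lower in shCtrl-OGDR than in shCtrl-CTRL and higher in shAnxa2-OGDR than in shAnxa2-CTRL, and Ccnb2 and Nusap1 show the reverse.

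Among the kinases that act beside CDK1, Aurka, whose product matures the spindle poles, stood at 211, 213 and 195 CPM in shCtrl-CTRL, 151, 161 and 164 in shCtrl-OGDR, 168, 170.4 and 162 in shAnxa2-CTRL and 202, 201 and 216 in shAnxa2-OGDR. Neither line showed overlap between untreated and OGD/R libraries. Its log2 fold changes were -0.38 ± 0.050 (SE) in shCtrl and 0.31 ± 0.050 (SE) in shAnxa2 cells, both called. Nek2, whose product separates the centrosomes, was close to it at -0.29 ± 0.045 (SE) and 0.27 ± 0.046 (SE). Plk1, whose product promotes entry into mitosis and spindle formation, stood at 164, 175 and 176 CPM in shCtrl-CTRL, 155, 165 and 173 in shCtrl-OGDR, 149, 154 and 147 in shAnxa2-CTRL and 162, 156 and 174 in shAnxa2-OGDR. The shCtrl groups overlapped, and the change in shCtrl cells, -0.06 ± 0.051 (SE), did not pass. The rise of 0.13 ± 0.052 (SE, edgeR adjusted p = 0.0401) in shAnxa2 cells was lost when any 1 of shAnxa2-CTRL replicates 1 and 3, shAnxa2-OGDR replicates 1 and 3 or shCtrl-CTRL replicates 2 and 3 was left out (edgeR adjusted p from 0.0516 to 0.217).

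In the spindle assembly checkpoint, 3 of 5 genes were lower in shCtrl and higher in shAnxa2 cells after OGD/R, and 2 passed in neither line. Bub3, whose product binds kinetochores together with BUB1, stood at 224, 221 and 231 CPM in shCtrl-CTRL, 167, 170.4 and 173 in shCtrl-OGDR, 163, 171 and 176 in shAnxa2-CTRL and 214, 215 and 210.1 in shAnxa2-OGDR. Its groups did not overlap within a line, and it fell by 0.40 and rose by 0.33 on the log2 scale (edgeR adjusted p = 3.28e-08 and 1.69e-06). Mad2l1, whose product MAD2 inhibits CDC20, stood at 65.8, 64.8 and 68.6 CPM in shCtrl-CTRL, 49.5, 50.1 and 47.5 in shCtrl-OGDR, 44.3, 47.2 and 49.2 in shAnxa2-CTRL and 67.9, 61.4 and 52.8 in shAnxa2-OGDR. It changed by -0.44 ± 0.069 (SE) and 0.37 ± 0.070 (SE), both called and neither with overlapping groups. Ttk, the gene of the checkpoint kinase MPS1, stood at 47.7, 47.2 and 48.8 CPM in shCtrl-CTRL, 31.0, 32.5 and 37.0 in shCtrl-OGDR, 37.4, 38.5 and 35.6 in shAnxa2-CTRL and 45.2, 46.3 and 41.3 in shAnxa2-OGDR. It changed by -0.52 ± 0.067 (SE) and 0.25 ± 0.068 (SE), both called. Bub1, the gene of a kinetochore kinase, stood at 161, 163 and 179 CPM in shCtrl-CTRL, 150.4, 161 and 154 in shCtrl-OGDR, 156, 168 and 148 in shAnxa2-CTRL and 156, 161 and 138 in shAnxa2-OGDR. These groups overlapped. Its log2 fold changes of -0.11 ± 0.059 (SE, edgeR adjusted p = 0.109) and -0.05 ± 0.060 (SE, edgeR adjusted p = 0.494) did not pass. Nor did those of Bub1b, the gene of the MAD2 partner BUBR1, at -0.06 ± 0.045 (SE) and 0.09 ± 0.045 (SE). The latter passed without shAnxa2-CTRL replicate 1 (edgeR adjusted p = 0.0471).

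The genes of anaphase onset split as well. Cdc20, whose product activates the anaphase-promoting complex, stood at 183, 177 and 184 CPM in shCtrl-CTRL, 158, 159 and 159 in shCtrl-OGDR, 171, 168 and 206 in shAnxa2-CTRL and 226, 218 and 250.2 in shAnxa2-OGDR. All shAnxa2-OGDR libraries were above all others, and the log2 fold changes were -0.19 ± 0.063 (SE, edgeR adjusted p = 0.00963) in shCtrl and 0.35 ± 0.063 (SE, edgeR adjusted p = 4.9e-05) in shAnxa2 cells. Ube2c stood at 299.5, 308 and 282 CPM in shCtrl-CTRL, 219, 224 and 255 in shCtrl-OGDR, 259.6, 264 and 274 in shAnxa2-CTRL and 315, 330.0 and 332 in shAnxa2-OGDR. It changed by -0.35 ± 0.054 (SE) and 0.29 ± 0.054 (SE), both called. Espl1, the gene of separase, which cuts the cohesin ring that holds sister chromatids, stood at 268, 256 and 264 CPM in shCtrl-CTRL, 209, 200.1 and 201 in shCtrl-OGDR, 215, 211 and 209.9 in shAnxa2-CTRL and 279.5, 291 and 313 in shAnxa2-OGDR. It showed the largest rise of the 48 genes in shAnxa2 cells, 0.47 ± 0.048 (SE, edgeR adjusted p = 1.6e-08), after a change of -0.37 ± 0.048 (SE) in shCtrl cells. Pttg1, the gene of the separase inhibitor securin, stood at 18.0, 17.8 and 16.5 CPM in shCtrl-CTRL, 18.4, 17.7 and 18.1 in shCtrl-OGDR, 21.4, 20.4 and 19.7 in shAnxa2-CTRL and 18.9, 20.1 and 18.0 in shAnxa2-OGDR. It had overlapping groups and passed in neither line. Cdca3, whose product helps to remove the mitotic brake WEE1, was lower in shAnxa2 cells (-0.20 ± 0.051 (SE, edgeR adjusted p = 0.0015)). In shCtrl cells its change of 0.10 ± 0.050 (SE, edgeR adjusted p = 0.0814) did not pass but did without shCtrl-OGDR replicate 1 (edgeR adjusted p = 0.0145).

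All 4 genes of the chromosomal passenger complex fell in shCtrl and rose in shAnxa2 cells. Aurkb, its kinase, stood at 146, 136 and 136 CPM in shCtrl-CTRL, 126, 121 and 112 in shCtrl-OGDR, 123, 120.3 and 132 in shAnxa2-CTRL and 139.6, 140.5 and 162 in shAnxa2-OGDR. Its log2 fold changes were -0.22 ± 0.058 (SE) and 0.23 ± 0.059 (SE). Birc5, the gene of survivin, which brings the complex to the centromere, stood at 65.1, 68.5 and 66.8 CPM in shCtrl-CTRL, 51.6, 56.0 and 53.0 in shCtrl-OGDR, 63.5, 61.5 and 61.0 in shAnxa2-CTRL and 79.0, 75.7 and 82.4 in shAnxa2-OGDR. Neither line had overlapping groups for it, and it changed by -0.32 ± 0.053 (SE) and 0.35 ± 0.053 (SE). Incenp, the scaffold, changed by -0.28 ± 0.066 (SE) and 0.29 ± 0.066 (SE). Cdca8, the gene of borealin, changed by -0.28 ± 0.058 (SE) and 0.43 ± 0.058 (SE), the latter among the 3 largest rises in shAnxa2 cells. Cdca8 stood at 89.7, 94.3 and 94.0 CPM in shCtrl-CTRL, 77.6, 78.1 and 73.0 in shCtrl-OGDR, 76.3, 77.2 and 91.3 in shAnxa2-CTRL and 109, 109.7 and 113 in shAnxa2-OGDR, with every shAnxa2-OGDR library above all others.

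The centromere and kinetochore genes differed from each other. Cenpa, the gene of the histone H3 variant that marks centromeres, stood at 83.3, 80.6 and 77.6 CPM in shCtrl-CTRL, 88.6, 90.7 and 92.5 in shCtrl-OGDR, 94.4, 90.0 and 90.9 in shAnxa2-CTRL and 81.2, 83.4 and 86.3 in shAnxa2-OGDR. It was higher after OGD/R in shCtrl cells (0.17 ± 0.048 (SE, edgeR adjusted p = 0.00349)) and lower in shAnxa2 cells (-0.13 ± 0.048 (SE, edgeR adjusted p = 0.0231)). The latter call was lost when any 1 of shAnxa2-CTRL replicate 1 or shAnxa2-OGDR replicate 1 was left out (edgeR adjusted p from 0.0898 to 0.0958). Cenpe, the gene of a kinesin that moves chromosomes to the spindle equator, stood at 172, 170.3 and 163 CPM in shCtrl-CTRL, 131, 128 and 138 in shCtrl-OGDR, 105, 109 and 103 in shAnxa2-CTRL and 136, 137 and 122 in shAnxa2-OGDR. It fell by 0.34 in shCtrl and rose by 0.32 in shAnxa2 cells on the log2 scale (edgeR adjusted p = 1.96e-06 and 1.23e-05). Cenpf, which encodes a large kinetochore protein, was at -0.09 ± 0.056 (SE) and -0.01 ± 0.057 (SE) and did not pass in either line, except in shCtrl cells without shCtrl-OGDR replicate 3 (edgeR adjusted p = 0.0415).

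Of the 6 kinesin genes, 5 were lower in shCtrl and higher in shAnxa2 cells after OGD/R. Kif20a, the gene of a motor that carries the passenger complex to the spindle midzone, stood at 166, 155 and 174 CPM in shCtrl-CTRL, 125, 131 and 118 in shCtrl-OGDR, 137, 135 and 146 in shAnxa2-CTRL and 183, 178 and 179 in shAnxa2-OGDR. Its log2 fold changes were -0.40 ± 0.051 (SE, edgeR adjusted p = 2.91e-07) and 0.37 ± 0.051 (SE, edgeR adjusted p = 1.77e-06). Kif20b, whose product acts late in cell division, stood at 237, 227 and 243 CPM in shCtrl-CTRL, 168, 167 and 167 in shCtrl-OGDR, 167, 173 and 159 in shAnxa2-CTRL and 202, 199 and 173 in shAnxa2-OGDR. The 3 shCtrl-OGDR values lay within 1 CPM of each other. It changed by -0.49 ± 0.054 (SE) and 0.20 ± 0.054 (SE). Kif23, the motor gene of the centralspindlin complex of the midzone, stood at 78.5, 80.6 and 82.9 CPM in shCtrl-CTRL, 60.8, 67.5 and 62.8 in shCtrl-OGDR, 58.4, 60.4 and 58.1 in shAnxa2-CTRL and 86.6, 77.2 and 79.5 in shAnxa2-OGDR. With 0.46 ± 0.056 (SE) it had the largest rise in shAnxa2 cells after Espl1. Kif4, a chromosome-bound motor gene, rose by 0.17 ± 0.051 (SE) in shAnxa2 cells. That call was lost without shAnxa2-OGDR replicate 2 (edgeR adjusted p = 0.0696). Kif11, the gene of the motor Eg5 that pushes the spindle poles apart, stood at 158, 153 and 159 CPM in shCtrl-CTRL, 119.6, 118 and 123 in shCtrl-OGDR, 107, 117 and 99.0 in shAnxa2-CTRL and 120.0, 127 and 107 in shAnxa2-OGDR. It fell in shCtrl cells (-0.39 ± 0.058 (SE, edgeR adjusted p = 3.14e-06)), while its shAnxa2 groups overlapped. Its rise in shAnxa2 cells, 0.14 ± 0.059 (SE, edgeR adjusted p = 0.0487), was lost when any 1 of shAnxa2-CTRL replicates 1 and 3, shAnxa2-OGDR replicates 1 and 2, shCtrl-CTRL replicates 1, 2 and 3 or shCtrl-OGDR replicates 1, 2 and 3 was left out (edgeR adjusted p from 0.0521 to 0.342). Kif2c, a microtubule depolymerizer gene, did not pass in either line.

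Of 6 spindle microtubule protein genes, 2 rose and 2 fell with OGD/R in shCtrl cells, where 32.4% and 31% of all genes did. In shAnxa2 cells 1 rose and 3 fell, where 28.2% and 26.8% of all genes did. Nusap1, whose product bundles microtubules near chromosomes, stood at 52.9, 53.0 and 51.9 CPM in shCtrl-CTRL, 63.9, 63.5 and 67.9 in shCtrl-OGDR, 77.9, 76.1 and 71.8 in shAnxa2-CTRL and 56.1, 60.1 and 50.4 in shAnxa2-OGDR. Untreated and OGD/R libraries did not overlap in either line. Nusap1 rose by 0.31 ± 0.060 (SE, edgeR adjusted p = 9.02e-05) in shCtrl cells and showed the largest fall of the 48 genes in shAnxa2 cells, -0.44 ± 0.060 (SE, edgeR adjusted p = 1.48e-06). Hmmr, the gene of a spindle-bound hyaluronan receptor, stood at 137, 147 and 141 CPM in shCtrl-CTRL, 156, 163 and 162 in shCtrl-OGDR, 161, 152 and 150.1 in shAnxa2-CTRL and 137, 138 and 113 in shAnxa2-OGDR. It changed by 0.18 ± 0.059 (SE, edgeR adjusted p = 0.0113) in shCtrl and -0.26 ± 0.060 (SE, edgeR adjusted p = 0.000829) in shAnxa2 cells. The first call was lost without shCtrl-CTRL replicate 1 (edgeR adjusted p = 0.0565). Dlgap5, the gene of the spindle protein HURP, was lower in shAnxa2 cells at -0.17 ± 0.052 (SE, edgeR adjusted p = 0.00956). This call was lost without shAnxa2-OGDR replicate 3 (edgeR adjusted p = 0.0546). Tpx2, whose product activates Aurora A on the spindle, was lower in shCtrl cells at -0.14 ± 0.056 (SE, edgeR adjusted p = 0.0357). Its call was lost when any 1 of shCtrl-CTRL replicates 2 and 3 or shCtrl-OGDR replicates 1 and 2 was left out (edgeR adjusted p from 0.0902 to 0.196). Prc1, whose product bundles the antiparallel microtubules of the midzone, followed Cdk1 at -0.35 ± 0.045 (SE) and 0.21 ± 0.045 (SE). Ckap2, at 11.4 to 15.0 CPM, did not pass in any comparison.

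Of the cytokinesis regulators, Anln, the gene of the contractile ring scaffold anillin, was in the common direction with -0.50 ± 0.046 (SE, edgeR adjusted p = 1.16e-09) in shCtrl and 0.29 ± 0.046 (SE, edgeR adjusted p = 9.93e-06) in shAnxa2 cells. Ect2, the gene of the exchange factor that switches on RhoA for the ring, stood at 82.9, 88.5 and 89.6 CPM in shCtrl-CTRL, 76.8, 76.8 and 76.2 in shCtrl-OGDR, 82.8, 81.5 and 73.6 in shAnxa2-CTRL and 73.9, 76.3 and 65.5 in shAnxa2-OGDR. It was lower in shCtrl cells (-0.18 ± 0.058 (SE, edgeR adjusted p = 0.00773)). The decrease of -0.14 in shAnxa2 cells was called (edgeR adjusted p = 0.0499), but was lost when any 1 of shAnxa2-CTRL replicates 1 and 2, shAnxa2-OGDR replicates 1 and 3, shCtrl-CTRL replicate 1 or shCtrl-OGDR replicates 2 and 3 was left out (edgeR adjusted p from 0.0554 to 0.251). Racgap1, the partner of Kif23 in centralspindlin, stood apart from Kif23: it did not pass in shCtrl cells (-0.02 ± 0.047 (SE)) and was lower in shAnxa2 cells (-0.12 ± 0.048 (SE, edgeR adjusted p = 0.0296)). The call in shAnxa2 cells was lost when any 1 of shAnxa2-CTRL replicates 1 and 2 or shAnxa2-OGDR replicates 1 and 3 was left out (edgeR adjusted p from 0.0589 to 0.103).

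The genes of chromosome structure were lower or not called in shCtrl cells and higher or not called in shAnxa2 cells. Mki67, the gene of the proliferation marker Ki-67, which coats mitotic chromosomes, stood at 1017, 958 and 879 CPM in shCtrl-CTRL, 854, 793 and 897 in shCtrl-OGDR, 686, 618 and 626 in shAnxa2-CTRL and 746, 749 and 678 in shAnxa2-OGDR. Its untreated libraries of the 2 lines were far apart, and its OGD/R changes were small, -0.17 ± 0.058 (SE, edgeR adjusted p = 0.0152) and 0.17 ± 0.058 (SE, edgeR adjusted p = 0.0156). The first was lost when any 1 of shCtrl-CTRL replicate 1 or shCtrl-OGDR replicate 2 was left out (edgeR adjusted p from 0.104 to 0.11). The second was lost when any 1 of shAnxa2-CTRL replicates 2 and 3 or shAnxa2-OGDR replicates 1 and 2 was left out (edgeR adjusted p from 0.0537 to 0.0815). Top2a, the gene of the topoisomerase that untangles sister chromatids, stood at 367, 373 and 371 CPM in shCtrl-CTRL, 259.8, 275 and 269.8 in shCtrl-OGDR, 293, 285 and 278 in shAnxa2-CTRL and 349.5, 345 and 302 in shAnxa2-OGDR. Its groups did not overlap within a line. It changed by -0.47 ± 0.052 (SE, edgeR adjusted p = 3.68e-08) and 0.22 ± 0.053 (SE, edgeR adjusted p = 0.00105). Smc2, a core subunit gene of condensin, the complex that compacts chromosomes, stood at 114, 123 and 125 CPM in shCtrl-CTRL, 80.2, 87.7 and 80.3 in shCtrl-OGDR, 88.0, 93.0 and 85.1 in shAnxa2-CTRL and 109, 107 and 89.9 in shAnxa2-OGDR. After Cdk1, it had the largest fall of the 48 genes in shCtrl cells, -0.54 ± 0.062 (SE, edgeR adjusted p = 4.94e-08). Its rise of 0.20 ± 0.063 (SE, edgeR adjusted p = 0.00914) in shAnxa2 cells was lost when any 1 of shAnxa2-OGDR replicates 1 and 2 was left out (edgeR adjusted p from 0.0676 to 0.0689). The condensin genes Smc4 and Ncapg fell in shCtrl cells (-0.23 ± 0.055 (SE) and -0.42 ± 0.068 (SE)) and did not pass in shAnxa2 cells. Ncapg passed there without shAnxa2-CTRL replicate 2 (edgeR adjusted p = 0.0249) or shAnxa2-OGDR replicate 3 (0.0205). Ncapd2 did not pass in shCtrl cells and rose in shAnxa2 cells (0.21 ± 0.049 (SE, edgeR adjusted p = 0.000934)).

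Without OGD/R, most of the 48 genes were lower in shAnxa2 than in shCtrl cells. In this comparison 33 were lower, where 29.7% of all genes tested were lower, and 6 were higher, where 29.5% were, with a median log2 difference of -0.23. The largest differences below shCtrl were those of Cenpe at -0.67 ± 0.051 (SE, edgeR adjusted p = 5.83e-11), Mki67 at -0.56 ± 0.058 (SE, edgeR adjusted p = 1.26e-08) and Kif11 at -0.55 ± 0.058 (SE, edgeR adjusted p = 2.27e-08). Cenpe was the only one of the 48 past 1.5-fold here, a size that 15.6% of all genes reached with a call. These differences share the untreated libraries with the OGD/R responses above. Those above shCtrl were Nusap1 at 0.52 ± 0.060 (SE, edgeR adjusted p = 7.84e-08), Cdc25b at 0.42 ± 0.055 (SE, edgeR adjusted p = 5.51e-07) and Ccnb2 at 0.40 ± 0.050 (SE, edgeR adjusted p = 3.6e-07). Smaller ones above shCtrl were those of Pttg1 at 0.23 ± 0.077 (SE), Cenpa at 0.19 ± 0.048 (SE) and Cdca3 at 0.17 ± 0.050 (SE). The call of Pttg1 was lost when any 1 of shAnxa2-CTRL replicate 1 or shCtrl-CTRL replicate 3 was left out (edgeR adjusted p from 0.0537 to 0.0575). All 6 kinesin genes and all 6 chromosome structure genes were lower. The call of Kif2c was lost when any 1 of shAnxa2-CTRL replicate 2 or shCtrl-CTRL replicates 1 and 3 was left out (edgeR adjusted p from 0.0699 to 0.14). Ccnb1, Cdc20 and Racgap1 had the smallest differences and were not called (edgeR adjusted p = 0.921, 0.969 and 0.997). Among the other calls, that of Ube2c was lost when any 1 of shAnxa2-CTRL replicate 1 or shCtrl-CTRL replicate 2 was left out (edgeR adjusted p from 0.063 to 0.0904). Aurkb lost its call when any 1 of shAnxa2-CTRL replicates 1 and 2 or shCtrl-CTRL replicate 1 was left out (edgeR adjusted p from 0.0744 to 0.111). Cdca8 lost it when any 1 of shAnxa2-CTRL replicates 1 and 2 was left out (edgeR adjusted p from 0.0658 to 0.0735), and Ect2 when any 1 of shAnxa2-CTRL replicates 2 and 3, shAnxa2-OGDR replicates 1 and 2, shCtrl-CTRL replicates 2 and 3 or shCtrl-OGDR replicates 1, 2 and 3 was left out (edgeR adjusted p from 0.0502 to 0.26).

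After OGD/R, more of the genes were higher in shAnxa2 cells than were lower. In that comparison 25 of the 48 were above shCtrl in shAnxa2 cells, where 33.8% of all genes tested were higher, and 13 were below it, where 34.2% were lower, with a median log2 difference of 0.18. Without the first shAnxa2-OGDR library, 24 were higher and 10 lower, with a median of 0.13. The largest was Cdk1 at 0.65 ± 0.051 (SE, edgeR adjusted p = 6.76e-11), the only one of the 48 past 1.5-fold here, where 26.3% of all genes were called and past it. It was followed by Birc5 at 0.56 ± 0.053 (SE, edgeR adjusted p = 1.5e-09) and Cdc20 at 0.54 ± 0.063 (SE, edgeR adjusted p = 4.04e-08). Espl1 at 0.54, Cdca8 at 0.53, Kif20a at 0.53 and Ube2c at 0.49 were close behind. The lowest was Ccnb2 at -0.45 ± 0.051 (SE, edgeR adjusted p = 2.71e-08), followed by Hmmr at -0.31 ± 0.060 (SE, edgeR adjusted p = 7.03e-05) and Cdc25c at -0.24 ± 0.094 (SE, edgeR adjusted p = 0.0273). Mki67, Bub1b, Cenpf and Smc4 were lower in shAnxa2 cells both without and after OGD/R, Mki67 by -0.23 ± 0.058 (SE) after it. Some calls did not hold on leaving out a library. That of Cdc25c was lost when any 1 of shAnxa2-OGDR replicates 1 and 3 or shCtrl-OGDR replicate 1 was left out (edgeR adjusted p from 0.0843 to 0.119). That of Incenp was lost when any 1 of shAnxa2-OGDR replicate 1 or shCtrl-OGDR replicate 1 was left out (edgeR adjusted p from 0.122 to 0.184). Cenpa lost its call when any 1 of shAnxa2-OGDR replicates 1 and 2 or shCtrl-OGDR replicates 2 and 3 was left out (edgeR adjusted p from 0.0624 to 0.144). Cdc25b lost its call when any 1 of shAnxa2-OGDR replicate 2 or shCtrl-OGDR replicate 1 was left out (edgeR adjusted p from 0.0505 to 0.0896). Dlgap5 lost its call when any 1 of shAnxa2-OGDR replicate 3 or shCtrl-OGDR replicate 3 was left out (edgeR adjusted p from 0.0809 to 0.0875). That of Cdca3 was lost without shCtrl-OGDR replicate 3 (edgeR adjusted p = 0.14). Racgap1 lost its call when any 1 of shAnxa2-CTRL replicates 1 and 2, shAnxa2-OGDR replicates 1 and 3, shCtrl-CTRL replicate 1 or shCtrl-OGDR replicates 1, 2 and 3 was left out (edgeR adjusted p from 0.0525 to 0.146).

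The difference between the OGD/R responses was tested directly as the interaction, the response in shAnxa2 minus that in shCtrl cells. It was higher for 31 of the 48 genes, where 34.9% of all genes tested were higher, and lower for 8, where 35.1% were, with a median of 0.52 on the log2 scale. With and without the first shAnxa2-OGDR library these counts were 31 and 8. Of the 39, 20 were past 1.5-fold (18 higher and 2 lower), where 41.8% of all genes were called and past 1.5-fold, so the interaction was often called but no more often large among these genes than among all. None of the 48 reached 2-fold in any comparison. That size was reached with a call by 6.73% and 3.54% of all genes for OGD/R in shCtrl and shAnxa2 cells, by 5.68% and 10.1% between the lines without and after OGD/R, and by 21.5% for the interaction. The largest interactions were those of Cdk1 at 0.92 ± 0.072 (SE, edgeR adjusted p = 4.12e-11), Espl1 at 0.84 ± 0.068 (SE, edgeR adjusted p = 6.96e-11) and Mad2l1 at 0.81 ± 0.098 (SE, edgeR adjusted p = 9.03e-08). The lowest were Ccnb2 at -0.85 ± 0.072 (SE, edgeR adjusted p = 1.66e-10), Nusap1 at -0.74 ± 0.085 (SE, edgeR adjusted p = 3.08e-08) and Cdc25b at -0.58 ± 0.077 (SE, edgeR adjusted p = 3.9e-07). The 9 genes that did not pass were Bub1, Bub1b, Pttg1, Cenpf, Kif2c, Tpx2, Ckap2, Ect2 and Racgap1. Of the calls, 2 did not hold on leaving out a library. That of Plk1 was lost when any 1 of shAnxa2-OGDR replicate 3, shCtrl-CTRL replicates 2 and 3 or shCtrl-OGDR replicate 1 was left out (edgeR adjusted p from 0.0709 to 0.111). Cdc25c lost its interaction call when any 1 of shAnxa2-CTRL replicate 2, shAnxa2-OGDR replicate 3, shCtrl-CTRL replicate 1 or shCtrl-OGDR replicate 1 was left out (edgeR adjusted p from 0.0547 to 0.0665). The interaction call of Ncapd2 was lost with upper-quartile scaling (edgeR adjusted p = 0.0805). Conversely, Bub1b passed without shAnxa2-CTRL replicate 1 (edgeR adjusted p = 0.0207), shAnxa2-OGDR replicate 3 (0.0496) or shCtrl-CTRL replicate 1 (0.039). Racgap1 passed without shAnxa2-OGDR replicate 2 (0.0397) and Tpx2 without shAnxa2-OGDR replicate 3 (0.0347).

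Over the 48 genes, the libraries of shCtrl-CTRL were closer to those of shAnxa2-OGDR than to those of either other group. Taken as the root of the mean squared difference in log2(CPM + 0.1), the distance averaged 0.207 over the 9 pairs of these libraries. It was 0.328 between shCtrl-CTRL and shCtrl-OGDR and 0.335 between shCtrl-CTRL and shAnxa2-CTRL. In the same way shCtrl-OGDR and shAnxa2-CTRL were 0.170 apart, against 0.274 between shAnxa2-CTRL and shAnxa2-OGDR and 0.323 between shCtrl-OGDR and shAnxa2-OGDR. Libraries of 1 group were 0.0832 to 0.129 apart on average. The highest group mean was that of shCtrl-CTRL for 26 genes and that of shAnxa2-OGDR for 12, and the lowest was that of shCtrl-OGDR for 17 and of shAnxa2-CTRL for 16. These distances and ranks were not taken over all genes tested, so whether they are particular to the 48 is not known. Whether the treatment titles of the shAnxa2 libraries are right was not tested.

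Summed over the 48 genes, the level was 8041 to 8082 CPM in shCtrl-CTRL, 6873 to 7032 in shCtrl-OGDR, 6693 to 6844 in shAnxa2-CTRL and 7354 to 7662 in shAnxa2-OGDR. The means were 8056 ± 22.9, 6929 ± 89.0, 6752 ± 80.4 and 7551 ± 171 CPM (SD, n = 3). With TMM no 2 groups overlapped, whereas with median-of-ratios scaling shCtrl-OGDR began at 6850.4 CPM and shAnxa2-CTRL reached 6874, so that these 2 overlapped. The sum in shAnxa2-OGDR thus lay above the other OGD/R group and below untreated shCtrl. For comparison, the sum over 42 DNA replication and S phase genes was 6586 to 6804 CPM in shCtrl-CTRL, 4352 to 4423 in shCtrl-OGDR, 4549 to 4736 in shAnxa2-CTRL and 6688 to 6855 in shAnxa2-OGDR. Here the first and the last group overlapped.

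**Figure D4:**
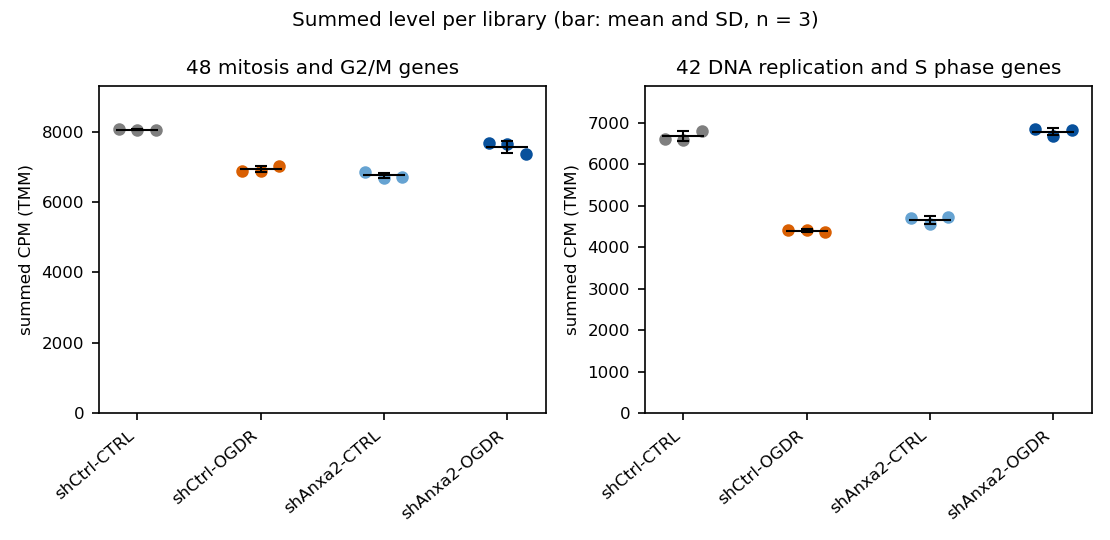
Summed CPM of the 48 mitosis and G2/M genes (left) and of 42 DNA replication and S phase genes (right) in each library (points), with group mean and SD (bars, n = 3) and y axes from 0. Both sums are lower in shCtrl-OGDR and shAnxa2-CTRL than in the other groups, and the S phase sum is set further apart.

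Other genes of the cell cycle, taken from lists that were chosen by name, had the same signs with some exceptions. Of all genes tested, 31% fell and 32.4% rose with OGD/R in shCtrl cells, and 28.2% rose and 26.8% fell in shAnxa2 cells, and the counts of each list stand beside these shares. Of 77 other mitosis and G2/M genes, 58 fell and 6 rose with OGD/R in shCtrl cells. In shAnxa2 cells 39 rose and 5 fell, and the median interaction was 0.45. Those with the largest interaction were Cdc25a, the gene of the CDC25 phosphatase of the G1/S transition (1.71), Fbxo5, which encodes the inhibitor EMI1 of the anaphase-promoting complex (1.70), and Lmnb1, the gene of lamin B1 (1.57). Each exceeded the 0.92 of Cdk1. The 42 DNA replication and S phase genes moved in 1 direction. In shCtrl cells 38 fell and 0 rose, and in shAnxa2 cells 40 rose and 0 fell, with medians of -0.59 and 0.47 and a median interaction of 0.98. Cdc6, a licensing factor gene, went from 83.0 to 29.4 CPM in shCtrl cells and from 39.1 to 74.7 in shAnxa2 cells, by group means. Of 8 D and E cyclin and partner kinase genes, all 8 were lower in shCtrl and 7 higher in shAnxa2 cells, and the G1/S cyclin gene Ccne1 had an interaction of 2.12.

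A further list held genes of the DREAM, MuvB and B-MYB complexes, which bind TTTGAA promoters, together with E2F genes and the genes of NF-Y, which binds CCAAT. Of its 18 genes tested, 13 fell and 2 rose in shCtrl cells, where 31% and 32.4% of all genes did. In shAnxa2 cells 10 rose and 2 fell, where 28.2% and 26.8% did, with a median interaction of 0.54. Interactions in this list ran from -1.35 to 1.93, the latter in a gene not named here. Mybl2, the gene of the activator B-MYB, went from 552 to 295 CPM in shCtrl cells and from 383 to 617 in shAnxa2 cells, an interaction of 1.59. Rbl2, which encodes the p130 subunit of the repressing DREAM complex, ran the other way, from 24.4 to 41.0 CPM and from 34.5 to 22.7 CPM, an interaction of -1.35. The 14 subunit genes of the anaphase-promoting complex had no common direction, with 4 higher and 5 lower in shCtrl cells. In shAnxa2 cells 4 rose and 3 fell, and the median interaction was 0.00.

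Genes known as brakes on the cell cycle or on entry into mitosis were mixed. Of 17, 8 rose and 2 fell with OGD/R in shCtrl cells, where 32.4% and 31% of all genes did. In shAnxa2 cells 5 rose and 9 fell, where 28.2% and 26.8% did, with a median interaction of -0.83 against 0.52 for the 48. Ccng2, the gene of an atypical cyclin found in arrested cells, went from 13.1 to 33.0 CPM in shCtrl cells and from 21.5 to 8.29 CPM in shAnxa2 cells. Gadd45a, the gene of a stress protein that inhibits CDK1 with cyclin B1, had an interaction of -2.29, and Btg1, an antiproliferative gene, one of -1.99. The checkpoint kinase gene Chek1 and the CDK1-inhibiting kinase gene Wee1, named here after their values were seen, moved with most of the 48. Chek1 went from 35.9 to 21.8 CPM in shCtrl cells and from 28.3 to 45.1 in shAnxa2 cells, an interaction of 1.40, and Wee1 had an interaction of 0.87. The cycle lists share libraries with the 48 genes, and their counts are a description beside them.

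**Figure D5:**
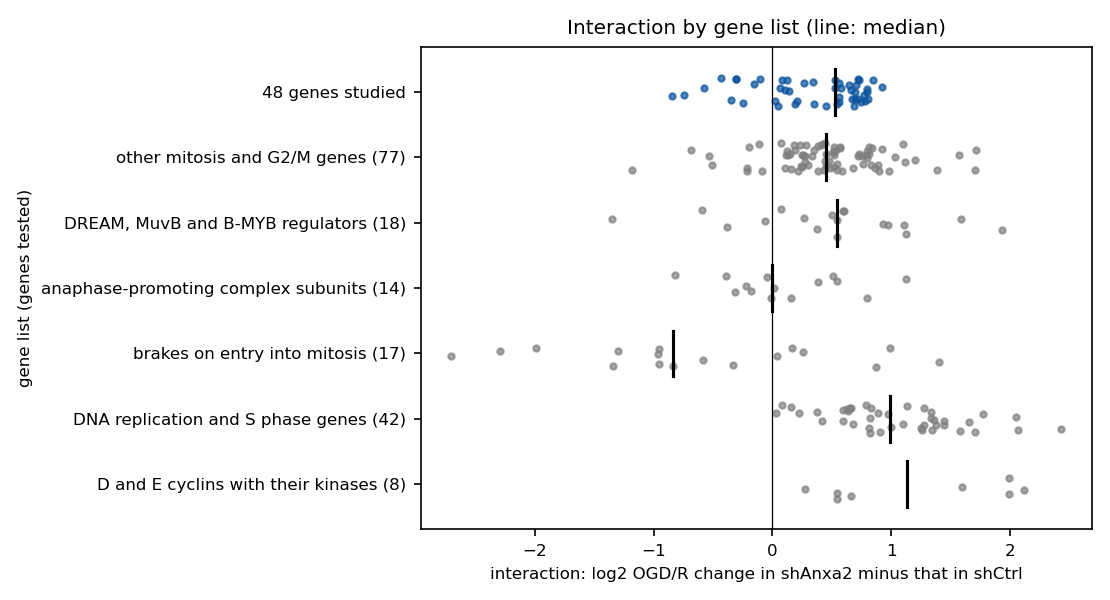
Interaction (log2 OGD/R change in shAnxa2 cells minus that in shCtrl cells) of each gene, by list, with the median as a black line; vertical scatter within a list is random. The median is 0.52 for the 48 genes studied, 0.98 for DNA replication and S phase genes and -0.83 for the brakes on entry into mitosis, and the 48 genes hold both positive and negative values.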

How the data were processed

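RNA-seq was done on 12 BV2 libraries, 3 in each of 4 groups. Per the labels, libraries were made with an unstranded NEBNext Ultra kit from total RNA, and the submitters' processing notes name HISAT2 2.0.4 and mm39. The study's methods describe sequencing of hippocampi with other tools, and how reads of these cells were counted is not given in the sources used here. Without strand, reads of overlapping genes cannot be told apart. The authors deposited raw counts per gene for 21834 protein-coding genes. The same table holds 12 columns of per-sample normalized values, which were not used.

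Counts were tested with edgeR 4.0.16 in R 4.3.3: TMM normalization, genes with 0.5 CPM or more in 3 or more libraries (11626 genes), a quasi-likelihood fit with a coefficient per group over all 12 libraries, and Benjamini-Hochberg adjustment over all genes, with calls at an adjusted p under 0.05. The SE is the size of the log2 fold change divided by the square root of F. The steps were tested on simulated counts. The study states that its cell libraries are 3 biological replicates, without saying how they were cultured, so that the spread may be partly technical. Within groups the chi-square per gene between libraries was 4.00 to 13.3, so that no library repeated another. No sequencing batch is named. If batches followed the groups, batch and group cannot be told apart here.

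The 48 genes and the other lists were chosen with earlier results of these data known, and no test was made of a list as a whole. Any of the 48 may be named, library values are given for a fixed set of them and for the 3 highest and 3 lowest in each comparison, and from each other list up to 3 genes with the largest called interaction at a mean of at least 1 CPM. Chek1 and Wee1 were named outside this rule, after their values were seen. RPKM divides CPM by the length of the union of exons in GENCODE vM21. Promoters are RefSeq windows on GRCm38.p6, a build not mixed with the coordinates of the table. Alternatives were median-of-ratios, upper-quartile and library-total scaling, no filter and a filter of 1 CPM, DESeq2 1.42.0, limma 3.58.1 (voom, and log2(CPM + 1)), fits to the compared groups alone, the replicate number as a block, calls that also need 1.5-fold or 2-fold, a shorter promoter window and leaving out each library.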

Additional observations from a re-analysis of the deposited data

Results flagged for a closer look

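The OGD/R response differed between the lines, by the interaction term of the edgeR fit at an adjusted p under 0.05, for Anxa2 (-1.74 on the log2 scale) and for 39 of the 48 genes, 31 higher and 8 lower, where 34.9% and 35.1% of all genes tested passed in these directions. Values are the change in shAnxa2 cells minus that in shCtrl cells. In the kinase core they were Cdk1 (0.92), Ccna2 (0.72), Ccnb1 (0.35), Ccnb2 (-0.85), Cdc25b (-0.58), Cdc25c (-0.35) and Foxm1 (0.71). The kinases that act beside it gave Plk1 (0.19), Aurka (0.69) and Nek2 (0.56), and the checkpoint gave Ttk (0.77), Bub3 (0.73) and Mad2l1 (0.81). The factors of anaphase onset gave Cdc20 (0.54), Ube2c (0.64), Espl1 (0.84) and Cdca3 (-0.31), and the chromosomal passenger complex Aurkb (0.45), Birc5 (0.67), Incenp (0.58) and Cdca8 (0.72). Genes of the centromere gave Cenpa (-0.30) and Cenpe (0.66), and the kinesins Kif11 (0.52), Kif20a (0.77), Kif20b (0.70), Kif23 (0.80) and Kif4 (0.52). Spindle proteins gave Nusap1 (-0.74), Hmmr (-0.44), Dlgap5 (-0.25) and Prc1 (0.56), and the contractile ring Anln (0.80). Genes of chromosome structure gave Mki67 (0.34), Top2a (0.69), Ncapd2 (0.20), Ncapg (0.56), Smc2 (0.75) and Smc4 (0.26).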

How the results depend on the processing

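The counts of genes called higher or lower among the 48 stayed within 1.5 times of the values given under every scaling, filter and tool tried, and so did the direction of each median. With upper-quartile scaling the median log2 fold change was -0.23 for OGD/R in shCtrl cells, 0.14 for OGD/R in shAnxa2 cells, -0.19 and 0.15 for shAnxa2 against shCtrl cells without and after OGD/R, and 0.45 for the interaction. Library totals alone gave 0.16 for OGD/R in shAnxa2 cells, 0.16 for the lines after OGD/R and 0.49 for the interaction, and no filter gave 0.16 and 0.50 for the first and last of these. With library totals the summed level in shCtrl-CTRL was 8080.3 CPM. The upper-quartile values, other than that for the lines after OGD/R, lay outside the range given by leaving out libraries, as narrowly did the value without a filter for OGD/R in shAnxa2 cells, and the other medians given here lay within it. The cause of the shifts was not tested. When a call also needed 1.5-fold, 0 genes were higher and 0 lower with OGD/R in either line, 0 higher and 1 lower in shAnxa2 against shCtrl cells without OGD/R, 1 higher and 0 lower after it, and 18 higher and 2 lower for the interaction. At 2-fold and an unadjusted p under 0.05, 0 genes were higher and 0 lower in each of the 5, since none of the 48 reached 2-fold.

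Leaving out each library in turn gave 4 to 6 genes higher and 29 to 32 lower with OGD/R in shCtrl cells (median -0.29 to -0.24), 24 to 28 higher and 5 to 9 lower in shAnxa2 cells (0.16 to 0.20), 5 to 8 higher and 29 to 33 lower for the lines without OGD/R (-0.25 to -0.20), 24 to 25 higher and 9 to 13 lower after it (0.13 to 0.21), and 30 to 32 higher and 7 to 9 lower for the interaction (0.47 to 0.53). The 8 genes lower in shAnxa2 cells became 5 without shAnxa2-OGDR replicate 1 or shAnxa2-CTRL replicate 1. Of 5232 values of single genes under an alternative, 137 lost and 34 gained a call, 0 changed sign where either fit made a call, and 68, all of 0.097 or less in size and of 20 results called in neither fit, changed sign, most often the difference of Racgap1 between the untreated lines (14 settings) and the interaction of Ckap2 (9 settings). The replicate number as a block gave 28 higher and 9 lower with OGD/R in shAnxa2 cells and 31 and 8 for the interaction. Deviations from the group means of same-numbered libraries correlated at -0.0513 to 0.135, above 0.1 in 1 of 18 pairs, and 6 of 12 libraries correlated best with their own number, so that the numbers were not taken to pair libraries.

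Each group had 3 libraries, so that an exact test of 1 group against another cannot go below 0.1, and the calls rest on the variance that edgeR shares across genes. Depth was not limiting for the 48 genes, whose lowest count in any library was 236. Reads of pseudogene copies and of overlapping genes could not be told apart.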
